A study of Mus musculus with 8 samples.

Results

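The cells described here were labeled early neutrophil progenitors of mouse bone marrow and were chosen by their level of Elane, the gene of neutrophil elastase. A cell entered the gate when it held at least 5 Elane UMIs per 10000 of its UMIs (unique molecular identifiers, each standing for 1 captured RNA molecule) and fewer than 5 UMIs of S100a8 plus S100a9 per 10000, the genes of a calcium-binding pair that later neutrophil stages carry in large amounts. The members were therefore selected on measured values, and Elane, S100a8 and S100a9 are given below without a test. Of 10046 cells kept from 4 libraries, 2042 met the gate. There were 687 gated cells in control mice, and 283, 675 and 397 in mice taken 3 h, 24 h and 72 h after injection of interferon α (IFNα).

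The study followed hematopoietic stem and progenitor cells (HSPCs) through the response to a single dose of IFNα by single-cell RNA sequencing. Lineage-negative, cKit-positive bone marrow cells were sorted, and extra hematopoietic stem cells (HSCs) were added to the sort, so that shares of cells describe that mixture and not the marrow. All 16 mice were C57Bl/6 wildtype animals of 12 to 14 weeks, none with a transgene or deletion. Control mice received 100 µl of PBS, and treated mice a subcutaneous dose of IFNα (50000 IU for each 20 g) 3 h, 24 h or 72 h before analysis, with 4 mice in each group. The 4 mice of a group were marked with hashtag antibodies and run as 1 library, so group and library cannot be told apart, and the 3 treated groups were compared with the same 4 control mice.

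Mice were the replicates. Gated cells per mouse numbered 232, 215, 226 and 14 in control, 65, 53, 90 and 75 at 3 h, 126, 222, 134 and 193 at 24 h, and 124, 74, 119 and 80 at 72 h. Control mouse 4 stood apart in number, with 58 kept cells in all, and gave the fewest gated UMIs of any mouse. The gated cells held 22235864 UMIs in control and 6711450, 22942596 and 10921055 UMIs in the 3 h, 24 h and 72 h groups, so the 3 h values were the least deeply measured, with a median of 23686 UMIs per gated cell against 32251 in control. Among all kept cells, 3 barcodes occurred in more than 1 library, and 1 of them belonged to a gated cell.

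Neutrophils arise from granulocyte-monocyte progenitors that begin to fill primary (azurophil) granules with serine proteases and myeloperoxidase before they make the secondary granule proteins of later stages. Type I interferons bind the IFNAR1 and IFNAR2 receptor pair on nearly all cells and signal through JAK1 and TYK2 to a transcription factor complex that holds IRF9. That complex binds the interferon-stimulated response element, a repeat of GAAA blocks, in front of interferon-stimulated genes (ISGs), whose products act against viruses, present antigen and feed back on the signal.

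The response element was read from promoter sequence to show what the most induced genes of the gated cells carry. The core searched was GAAA, any pair of bases and GAAA again, on either strand, in the 250 bases before the gene start of RefSeq promoters (GRCm38.p6). It stood in 936 of 27025 promoters (3.46%) and in 261 of the 7560 tested genes with a promoter in the table (3.45%). Among genes called higher in the gated cells at 3 h, 48 of 234 held it (20.5%), and among those called higher at 24 h, 21 of 64 (32.8%). At 72 h, 3 of the 30 called higher held it (10.0%). Genes called lower held it in 1 of 66 at 3 h (1.52%), in 0 of 24 at 24 h and in 0 of 28 at 72 h. Outside the list of known ISGs, 24 of the 179 genes called higher at 3 h held it (13.4%). Of the 10 genes with the largest rises at 3 h, 7 had a promoter sequence to search, and 6 of these held the core. The windows of 30 bases below come from those 6 and were thus chosen for holding it. They are read 5′ to 3′ on the strand of the gene, with the core in capitals. A core read on the other strand appears as TTTC, any pair of bases and TTTC.

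Ifit3, chr19:34583397-34583426, plus strand, core 122 to 113 bases before the start: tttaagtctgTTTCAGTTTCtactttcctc
Ifit1, chr19:34640794-34640823, plus strand, core 85 to 76 bases before the start: ccagtctcagTTTCAGTTTCtcactgctga
Isg15, chr4:156200865-156200894, minus strand, core 66 to 57 bases before the start: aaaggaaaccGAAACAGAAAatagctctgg
Oas3, chr5:120777715-120777744, minus strand, core 75 to 66 bases before the start: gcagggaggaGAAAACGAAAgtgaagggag
Rsad2, chr12:26456553-26456582, minus strand, core 120 to 111 bases before the start: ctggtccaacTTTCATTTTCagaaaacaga
Cxcl10, chr5:92349083-92349112, minus strand, core 213 to 204 bases before the start: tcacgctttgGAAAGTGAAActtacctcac

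The promoters of Irf7 and Ifitm3, both strongly induced below, and those of Elane, Mpo and Prtn3 held no such core in this window, and 1 of 13 primary granule genes did (7.69%). These matches describe letters in a window and not binding.

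The label was checked against the markers given with it. In control mice the gated cells held 9522 ± 316 CPM (CPM is the count scaled to a library of 1e+06 UMIs, here over the gated cells of a mouse; SD, n = 4) of Elane (chr10:79886247-79888215, plus strand), which the gate fixed. Prtn3 (chr10:79874476-79883174, plus strand), the neighboring gene of proteinase 3, stood at 8294 ± 331 CPM and Mpo, the gene of myeloperoxidase, at 6865 ± 259 CPM. Ctsg, the gene of cathepsin G, stood at 3831 ± 288 CPM and Ms4a3, a membrane protein of granulocyte-monocyte progenitors, at 1039 ± 128 CPM. Kept cells that met neither this gate nor the next classes held 73.2 CPM of Mpo, 274 CPM of Prtn3 and 53.4 CPM of Ctsg (n = 4). Kept cells with Mpo at or above 5 UMIs per 10000 but Elane below it, called Mpo-positive, Elane-low cells here, lay in between. They held 1703 CPM of Mpo, 1866 CPM of Prtn3 and 113 CPM of Ms4a3 (n = 3 control mice). All 5 markers were higher in the gated cells than in both of these. Genes of other fates were also among those most enriched in the gated cells (n = 3 control mice). Prg2, an eosinophil granule gene, stood at 327 CPM, against 3.36 CPM in the cells of neither class and 95.7 CPM in the Mpo-positive, Elane-low cells. The monocyte markers Ms4a6c and Ly86 stood at 300 and 127 CPM, against 27.9 and 10.2 CPM and against 242 and 92.8 CPM. The gate may thus hold progenitors of other fates, and its purity was not tested. These levels are a description, since the same cells set the gate.

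Secondary granule and late neutrophil genes differed in level in the gated control cells. The 20 listed, S100a8 and S100a9 of the gate among them, summed to 470 ± 71.5 CPM (plain CPM, SD, n = 4), led by Anxa1. Lcn2, the gene of lipocalin 2, stood at 23.2 ± 7.03 CPM and Wfdc21 at 14.5 ± 7.73 CPM. Lactoferrin (Ltf) stood at 0.0686 CPM, the cathelicidin gene Camp at 0.307 CPM and Ngp at 0.378 CPM, and Ly6g and Itgb2l were not counted. The Elane-positive cells left out for S100a8 and S100a9, 105 in control, lay further along the same genes. They held 25269 CPM of Elane, 2567 CPM of Ms4a3 and 319 CPM of Cebpe, the transcription factor that late granulopoiesis needs, against 148 CPM of Cebpe in the gated cells of the same 3 control mice.

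The members differed widely among themselves. In control mice 42.0% ± 13.9 (SD, n = 4) of the gated cells held 80 or more Elane UMIs per 10000, and 20.2% ± 1.44 held 5 to under 20. Over the ranges of Elane from 5 to under 20, 20 to under 80 and 80 upward, Ms4a3 stood at 366 ± 54.3, 726 ± 50.5 and 1535 ± 95.7 CPM in control (SD, n = 3 mice), and Mpo at 3622 ± 187, 5592 ± 211 and 8642 ± 322 CPM. Cebpe took the same order, with 47.5 ± 42.0, 118 ± 48.9 and 199 ± 23.3 CPM, and Gfi1, a repressor needed for neutrophil fate, stood at 23.6, 28.1 and 75.5 CPM. Among genes of earlier progenitors, Cd34 and Flt3 took the opposite order and Kit did not. Cd34, a surface sialomucin of progenitors, stood at 274, 220 and 134 CPM, the receptor gene Flt3 at 21.0, 8.31 and 1.89 CPM, and Kit, the stem cell factor receptor, at 64.9 ± 18.3, 44.7 ± 9.94 and 53.2 ± 4.04 CPM. Irf8, the factor of monocyte fate, was at 233 and 282 CPM in the lower ranges and at 149 CPM in the highest. The highest range held 33.9% ± 5.18 of the gated cells in the 3 h mice, 37.3% ± 3.95 in the 24 h mice and 36.0% ± 6.67 in the 72 h mice (n = 4 each). Control mice 1 to 3 held 45.3%, 51.6% and 49.6% in that range and control mouse 4, with 3 of 14 cells, 21.4%. All 12 treated mice, at 28.4% to 43.7%, lay below the first 3 control mice and above the fourth. The gate used Elane, so these shares have no test.

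The limit of the gate fell within a gradient. The 101 cells with 4 to under 5 Elane UMIs per 10000 held 2605 CPM of Mpo, 2694 CPM of Prtn3 and 203 CPM of Ms4a3, and the 77 cells with 5 to under 6 held 2824, 3066 and 174 CPM. Elane UMIs were counted in other kinds of cell as well, from a source that was not tested. Of the control cells marked by the erythroid genes Klf1 and Car1, 62.7% carried at least 1 Elane UMI, against 28.4%, 47.9% and 33.8% in the 3 h, 24 h and 72 h libraries, but few reached the level of the gate: 4 of 378 in control (1.06%, exact 95% interval 0.289 to 2.69%), 0 of 222 at 3 h, which allows a share of up to 1.35% by a limit of 3 counts (exact 95% upper bound 1.65%), 3 of 509 at 24 h and 2 of 397 at 72 h. These intervals cover counting error only. The median depth of those erythroid-marked cells was 17523 UMIs in control and 12607.5, 20131 and 13114 UMIs in the 3 h, 24 h and 72 h libraries.

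The gated cells made up a smaller share of the sorted mixture after IFNα in all 12 treated mice. In the 3 control mice with 100 or more kept cells, the share was 28.1%, 28.1% and 27.4% of kept cells. It was 19.7%, 14.5%, 14.7% and 21.3% in the 3 h mice. The 24 h mice held 20.6%, 17.9%, 19.3% and 21.1%, and the 72 h mice 16%, 15.1%, 19.4% and 14.0%. No treated mouse overlapped the control mice. The mean difference from control was -10.3, -8.15 and -11.7 percentage points at the 3 times in order. Elane, S100a8 and S100a9, the values of the gate, set this share, so it is given without a test. Fewer gated cells and more of the other cells in the sort cannot be told apart in a share.

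**Figure D1:**
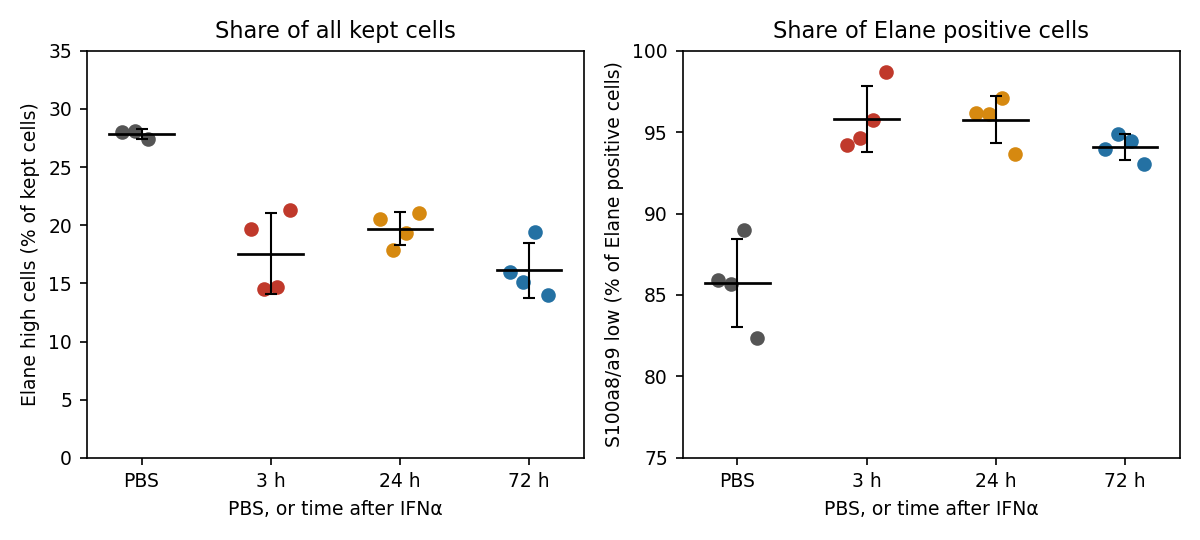
Share of gated cells per mouse, in percent of all kept cells (left, control mouse 4 not shown for its 58 kept cells) and in percent of Elane-positive cells (right), by group; points are mice, horizontal bars the group mean and error bars the SD, and the right axis starts at 75%. All treated mice lie below the control mice on the left (control mean 27.9%) and above them on the right (control mean 85.7%).

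Among Elane-positive cells alone, the gated share moved the other way, since the cells with S100a8 and S100a9 were scarcer after treatment. There were 105 of these later cells in control and 12, 31 and 25 in the 3 h, 24 h and 72 h libraries. The gated share of Elane-positive cells was 85.9%, 85.7%, 89.0% and 82.4% in the control mice, and from 93.0% to 98.7% in the 12 treated mice. Every treated mouse lay above every control mouse. The means were 85.7% ± 2.71 in control and 95.8% ± 2.02, 95.8% ± 1.46 and 94.1% ± 0.79 in the 3 h, 24 h and 72 h mice (SD, n = 4 each). This share is set by the S100a8 and S100a9 limit of the gate and is given without a test.

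Changes of expression were tested on UMI counts summed over the gated cells of each mouse, with edgeR's quasi-likelihood test and Benjamini-Hochberg adjustment over the 9770 genes that passed the filter on low counts. In such sums, a change in every cell and a change in the mix of cells within the gate cannot be told apart. A gene was called when its adjusted p was below 0.05 and its log2 fold change was beyond 1 in size, and "rose" and "fell" are used of called genes only. Values from here on are CPM scaled by TMM factors, which make libraries of different composition comparable, unless another scale is named. At 3 h, 322 genes were called higher (3.3% of those tested) and 83 lower (0.85%). At 24 h, 94 were called higher (0.962%) and 29 lower (0.297%), and at 72 h, 60 higher (0.614%) and 39 lower (0.399%). With scaling by library size alone, the 3 h counts were 271 higher and 171 lower, and the median over all tested genes then lay at -0.18 in place of -0.03 on the log2 scale.

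Primary granule genes were not called but many were slightly lower. None of the 16 tested primary granule genes, Elane left out, was called at any time, beside the shares of called genes just given, while scaling by library size alone called 1 lower at 3 h. At an adjusted p below 0.05 alone, 10 were lower and 1 higher at 3 h, 5 lower and 1 higher at 24 h, and 12 lower and none higher at 72 h, with median log2 fold changes of -0.23, -0.16 and -0.29 (edgeR's quasi-likelihood test). Over all tested genes, 9.94%, 5.11% and 6.36% were lower by this rule at 3 h, 24 h and 72 h, and 13.4%, 7.21% and 7.49% higher. In a split chosen after seeing the data, cells with 5 to under 80 Elane UMIs per 10000 had 1, 3 and 3 of the 16 lower, the 3 h one called, and cells with 80 or more had 8, 3 and 8 lower and none called. The shares over all tested genes above are those of the whole gate, and none are given for these ranges. The counts per range are therefore not compared with a background.

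Prtn3 stood at 7982, 7650, 7875 and 8398 CPM in control, 7413, 6073, 7069 and 6625 CPM at 3 h, 6695, 5892, 6818 and 6790 CPM at 24 h, and 6208, 5914, 6486 and 6547 CPM at 72 h. All 12 treated mice were below all 4 control mice. The log2 difference was -0.23 ± 0.05 (SE) at 3 h, -0.28 ± 0.05 at 24 h and -0.34 ± 0.05 at 72 h, with adjusted p of 0.000328, 3.6e-05 and 1.87e-06 by edgeR's quasi-likelihood test. Mpo (chr11:87793581-87804413, plus strand) stood at 6295, 6910, 6707 and 6498 CPM in control and at 6032, 5531, 5534 and 5292 CPM at 3 h. All 3 h mice were below control, by -0.24 ± 0.04 on the log2 scale (edgeR adjusted p = 1.89e-05), while at 24 h the groups overlapped (-0.05 ± 0.04, adjusted p = 0.437). At 72 h Mpo stood at 5559, 5974, 5963 and 6382 CPM, with 1 mouse within the control range (-0.15 ± 0.04, edgeR adjusted p = 0.0101). Ctsg (chr14:56099881-56102574, minus strand) overlapped control at 3 h and 24 h, with differences of -0.25 ± 0.05 at 3 h (edgeR adjusted p = 0.000782), -0.09 ± 0.05 at 24 h (0.289) and -0.22 ± 0.05 at 72 h (0.0048).

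Ms4a3 was at 1009, 1121, 1035 and 829.2 CPM in control and at 1275, 895, 989 and 1021 CPM at 3 h, overlapping groups, with a log2 difference of 0.03 ± 0.08 (edgeR adjusted p = 0.811). Its level was 912 ± 74.3 CPM at 24 h (-0.17 ± 0.07, edgeR adjusted p = 0.138) and 844 ± 66.9 CPM at 72 h (-0.28 ± 0.07, adjusted p = 0.0102), overlapping control through control mouse 4. Elane, which the gate used and which has no test, ranged from 8755 to 9438 CPM in control and from 6844 to 8128, 6464 to 7838 and 6658 to 7756 CPM in the 3 h, 24 h and 72 h mice. The member that was higher was Plac8, a small cysteine-rich protein abundant in myeloid progenitors, at 4541 ± 140 CPM in control, 6002 ± 113 CPM at 3 h and 5247 ± 60.4 CPM at 24 h (SD, n = 4), above every control mouse in all 8 mice but by 0.41 ± 0.03 and 0.21 ± 0.03 on the log2 scale only.

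**Figure D2:**
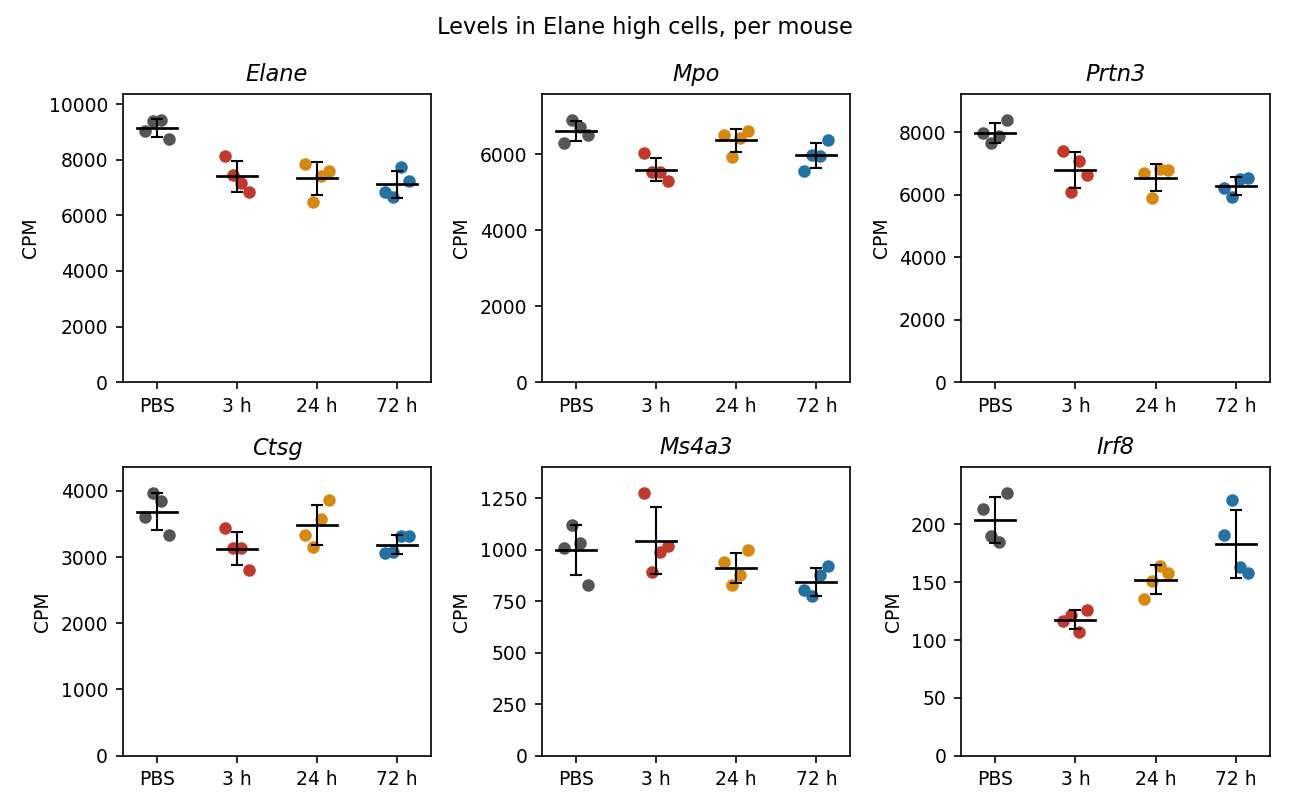
Levels of the marker genes per mouse in the gated cells, in TMM-scaled CPM, by group; points are mice, horizontal bars the group mean and error bars the SD, and Irf8 is shown beside the markers. Prtn3 lies below control in all 12 treated mice, Mpo at 24 h and Ms4a3 at 3 h overlap control, and Irf8 is lowest at 3 h, from 107 to 126 CPM; Elane was used by the gate.

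Of 20 genes of secondary granules and late neutrophils, 8 passed the filter. Padi4, the enzyme that converts arginine to citrulline in histones, stood at 4.80, 7.10, 5.35 and 7.40 CPM in control and rose to 9.31, 14.5, 10.6 and 13.8 CPM at 3 h, with every treated mouse above control (log2 1.04 ± 0.21, edgeR adjusted p = 0.000436). In cells with 80 or more Elane UMIs per 10000 alone the value was 0.58 and no longer called. Fcnb, a ficolin of granulocyte granules, fell at 24 h, from between 2.87 and 5.05 CPM in control to between 0.223 and 1.05 CPM (log2 -2.38 ± 0.35, edgeR adjusted p = 8.77e-06). Its 3 h value, between 0.963 and 2 CPM, was called lower as well (-1.37 ± 0.45, adjusted p = 0.0267), but not with DESeq2 or with the hashtag number as a replicate block (-1.29), nor without control mouse 1 (-1.08) or without 3 h mouse 2 (-1.28), mouse 3 (-1.19) or mouse 4 (-1.46). The other 6 were not called at any time. Among all tested genes, 3.3% were called higher in the 3 h comparison. The share called lower was 0.85% there and 0.297% in the 24 h comparison. By adjusted p below 0.05 alone (edgeR's quasi-likelihood test), the 3 h comparison had 2 of the 8 higher with 1 lower. The 24 h and 72 h comparisons each had 1 higher with 1 lower. For all tested genes this rule gave 13.4%, 7.21% and 7.49% higher, beside 9.94%, 5.11% and 6.36% lower, over the 3 times.

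Among 19 tested myeloid transcription factors, Klf4 and Id2 were called and none was called higher. Called lower were 1, 2 and 2 at 3 h, 24 h and 72 h, against 0.85%, 0.297% and 0.399% of all tested genes. At an adjusted p below 0.05 alone, 3, 1 and 1 were higher and 4, 4 and 5 lower (edgeR's quasi-likelihood test). Over all tested genes, 13.4%, 7.21% and 7.49% were higher and 9.94%, 5.11% and 6.36% lower by this rule. Klf4 (chr4:55527143-55532466, minus strand), a factor that favors monocytes, stood at 24.5, 12.3, 17.8 and 27.2 CPM in control, 4.65, 0.963, 4.05 and 6.08 CPM at 3 h, and 2.75, 2.88, 8.93 and 7.91 CPM at 24 h. No mouse at these times reached the lowest control. The log2 change was -2.12 ± 0.41 at 3 h (edgeR adjusted p = 0.000189) and -1.73 ± 0.26 at 24 h (1.51e-05). At 72 h, with 5.09, 15.2, 8.23 and 9.11 CPM, mouse 2 lay within the control range, and the call (-1.07 ± 0.29, edgeR adjusted p = 0.0114) was lost with DESeq2, without control mouse 1 (-0.82) and without 72 h mouse 1 (-0.83). Among cells with 80 or more Elane UMIs per 10000 alone, the 3 h value was -1.06 and the 72 h value -0.85, neither called. Id2, an inhibitor of E proteins, fell at 24 h from between 2.47 and 5.32 CPM to between 1.83 and 2.16 CPM (-1.17 ± 0.24, edgeR adjusted p = 0.000716, not called at -0.37 with an Elane limit of 2 per 10000) and at 72 h to between 0.897 and 2.17 CPM (-1.61 ± 0.31, adjusted p = 0.000462).

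Irf8 (chr8:120736358-120756694, plus strand) stood at 214, 190, 185 and 227 CPM in control and at 116, 121, 107 and 126 CPM at 3 h. The groups did not overlap, and the log2 difference of -0.76 ± 0.09 (edgeR adjusted p = 7.56e-08) was short of the fold threshold. At 24 h the difference was -0.38 ± 0.08 (edgeR adjusted p = 0.000597) and at 72 h -0.12 ± 0.08 (0.343). Myc and Cebpb, factors of growth and of emergency granulopoiesis, were higher at 3 h, again short of the threshold, by 0.72 ± 0.08 (edgeR adjusted p = 1.83e-08) and 0.55 ± 0.08 (1.12e-06). Cebpe, Spi1 and Myb, further factors of myeloid and progenitor cells, were not called at any time, the furthest from 0 being Cebpe at 72 h (-0.44 ± 0.12). None of the 13 tested growth factor and cytokine receptors was called at any time. Over all tested genes, 3.3%, 0.962% and 0.614% were called higher and 0.85%, 0.297% and 0.399% lower. At an adjusted p below 0.05 alone, 2 were higher and 4 lower at 3 h, against 13.4% and 9.94% of all tested genes. At 24 h these counts were 1 and 1, against 7.21% and 5.11%, and at 72 h 2 and 1, against 7.49% and 6.36%. The 15 listed summed to 847 ± 35.5 CPM in control. The 3 h, 24 h and 72 h mice held 650 ± 20.4, 824 ± 11.9 and 802 ± 11.7 CPM (plain CPM, SD, n = 4).

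The largest response was that of the ISGs. Of 84 listed, 78 were tested, and at 3 h, 70 were called higher and 0 lower, with a median log2 fold change of 3.09, against 3.3% of all tested genes called higher. At 24 h, 44 were called higher and 0 lower, with a median of 1.17, and at 72 h 0 were called, with a median of -0.001, and 2 higher and 1 lower at an adjusted p below 0.05 alone. DESeq2 gave 70, 42 and 0. Their summed level was 2832 ± 86.9 CPM in control and 11333 ± 762, 5086 ± 189 and 2756 ± 149 CPM in the 3 h, 24 h and 72 h mice (plain CPM, SD, n = 4).

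Isg15 (chr4:156199424-156200818, minus strand), a ubiquitin-like modifier, stood at 9.22, 6.96, 12.4 and 7.40 CPM in control, 1008, 1136, 938 and 888 CPM at 3 h, 57.0, 66.6, 55.4 and 72.2 CPM at 24 h, and 13.8, 6.88, 14.6 and 7.81 CPM at 72 h. All 3 h and 24 h mice were above all control mice, and the 72 h mice overlapped control. The ratio of mean CPM was 110 at 3 h (fitted log2 6.70 ± 0.12, edgeR adjusted p = 6.62e-28) and 6.97 at 24 h (2.74 ± 0.14, adjusted p = 9.6e-16). Irf7 (chr7:141262706-141266481, minus strand), the factor that extends the interferon response, stood at 1.64, 1.91, 3.08 and 2.47 CPM in control, 172, 191, 158 and 176 CPM at 3 h, and 24.7, 37.0, 31.7 and 28.0 CPM at 24 h. No treated mouse at these times came near the control range, and the ratios of mean CPM were 76.6 and 13.4 (fitted log2 6.27 ± 0.15 and 3.79 ± 0.17). At 72 h Irf7 stood between 0.598 and 1.97 CPM (-0.68 ± 0.43, edgeR adjusted p = 0.339).

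Several genes of the antiviral effector families were hardly counted in control. Ifit1, which binds foreign RNA ends, stood at 0 to 1.34 CPM in control and at 211, 285, 189 and 186 CPM at 3 h. Ifit3, its partner, had 4 UMIs in all gated control cells and 296 at 3 h, a ratio of pooled CPM of 245 (95% counting interval 94.8 to 906). Ifit3b and Ifit1bl1, close relatives in the same gene family whose reads can be split between copies, were at 0 in all control mice and at 7.19 to 13.2 CPM and 8.29 to 13.3 CPM at 3 h. Cxcl10, a chemokine, stood at 0 to 1.07 CPM in control and 207, 235, 116 and 177 CPM at 3 h. Rsad2 (viperin) stood at 105 to 151 CPM and Oas3, a sensor of double-stranded RNA, at 31.0 to 35.6 CPM at 3 h, from at most 1.77 and 0.546 CPM in control.

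**Figure D3:**
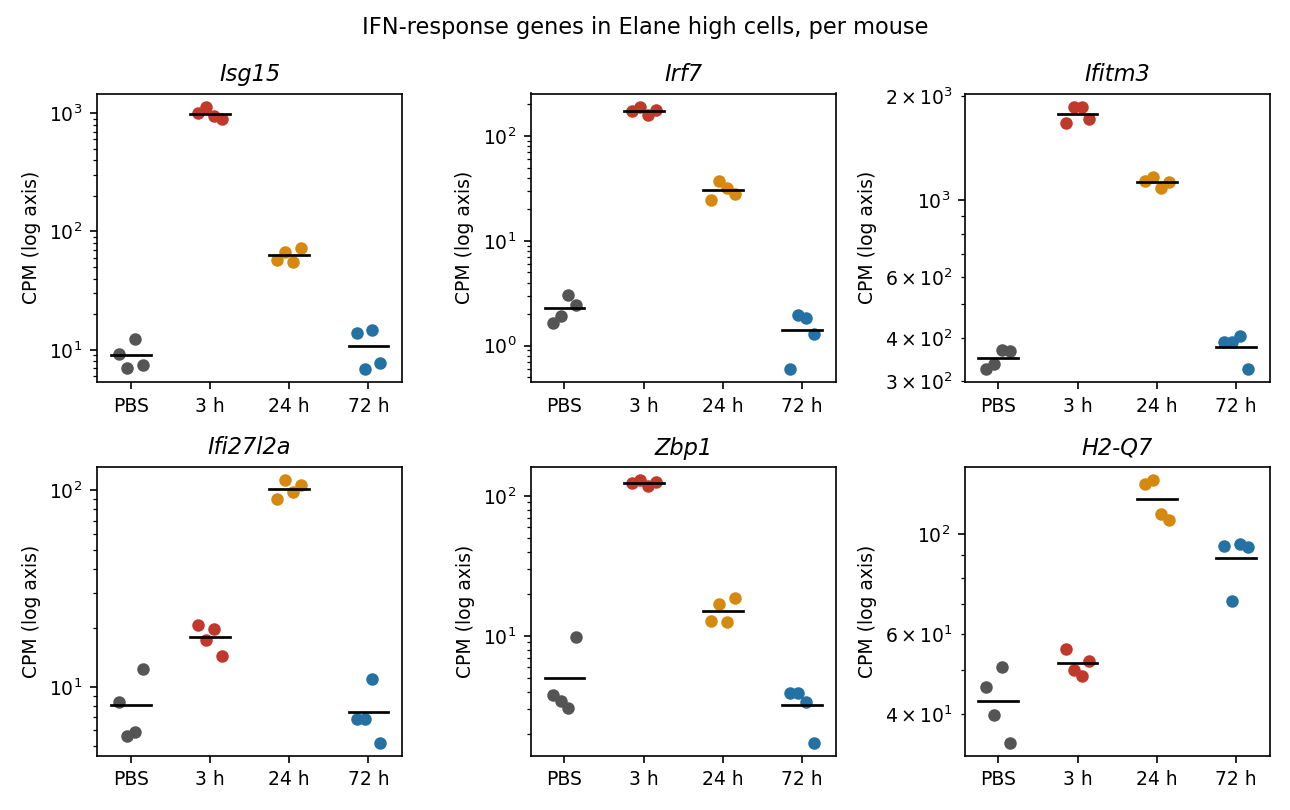
Levels of selected ISGs per mouse in the gated cells, TMM-scaled CPM on log axes, by group; points are mice and bars the group mean. Isg15 runs from 6.96 to 12.4 CPM in control and from 888 to 1136 CPM at 3 h, and the 72 h mice overlap the control mice, while Ifi27l2a has its highest values at 24 h, from 90.2 to 113 CPM.

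The fall from 3 h to 24 h was not the same for all ISGs. Ifi27l2a (chr12:103442167-103443680, minus strand), a small interferon-induced membrane protein, stood at 8.34, 5.60, 5.88 and 12.3 CPM in control, 20.6, 17.3, 19.7 and 14.4 CPM at 3 h, and 90.2, 113, 97.6 and 107 CPM at 24 h. Each step was without overlap, and the ratio of mean CPM to control was 2.24 at 3 h and 12.7 at 24 h (fitted log2 1.41 ± 0.21 and 3.92 ± 0.12, edgeR adjusted p = 3.71e-06 and 1.85e-21). With counts thinned to the mouse with the fewest UMIs, the 3 h call was lost (1.07). Ly6a, the gene of the stem cell marker Sca-1, held a plateau, with 4.08 ± 1.73 CPM in control, 28.7 ± 7.31 CPM at 3 h and 26.8 ± 2.29 CPM at 24 h (SD, n = 4). Ifitm3 (chr7:141009586-141010770, minus strand), which blocks viral entry, had the highest summed count of the ISGs at 3 h and 24 h, with 326, 337, 368 and 368 CPM in control, 1670, 1864, 1854 and 1717 CPM at 3 h and 1133, 1168, 1088 and 1129 CPM at 24 h. Bst2 (tetherin) rose from 196 ± 10.8 to 791 ± 30.2 and 456 ± 13.3 CPM. The 3 treated groups share the control mice, so these courses are given side by side and the difference between times was not tested.

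Some genes of the signal itself rose. Of 14 tested, 7 were called higher at 3 h and 0 lower (among them Irf9, Irf7, Usp18, Socs1 and Isg15), 4 at 24 h (Irf7, Irf9, Usp18 and Isg15) and 0 at 72 h, with the 24 h call of Irf9 lost under the same thinning (0.89). Over all tested genes 3.3% were called higher at 3 h and 0.962% at 24 h. The list shares members with the ISGs. Usp18, which removes ISG15 and silences the receptor, stood at 1.64 to 4.94 CPM in control, 168 to 243 CPM at 3 h and 10.7 to 15.4 CPM at 24 h. The receptor and kinase levels were not called: Ifnar2 differed by -0.18 ± 0.09 at 3 h (edgeR adjusted p = 0.165) and Jak1 by 0.03 ± 0.10 (0.888).

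**Figure D4:**
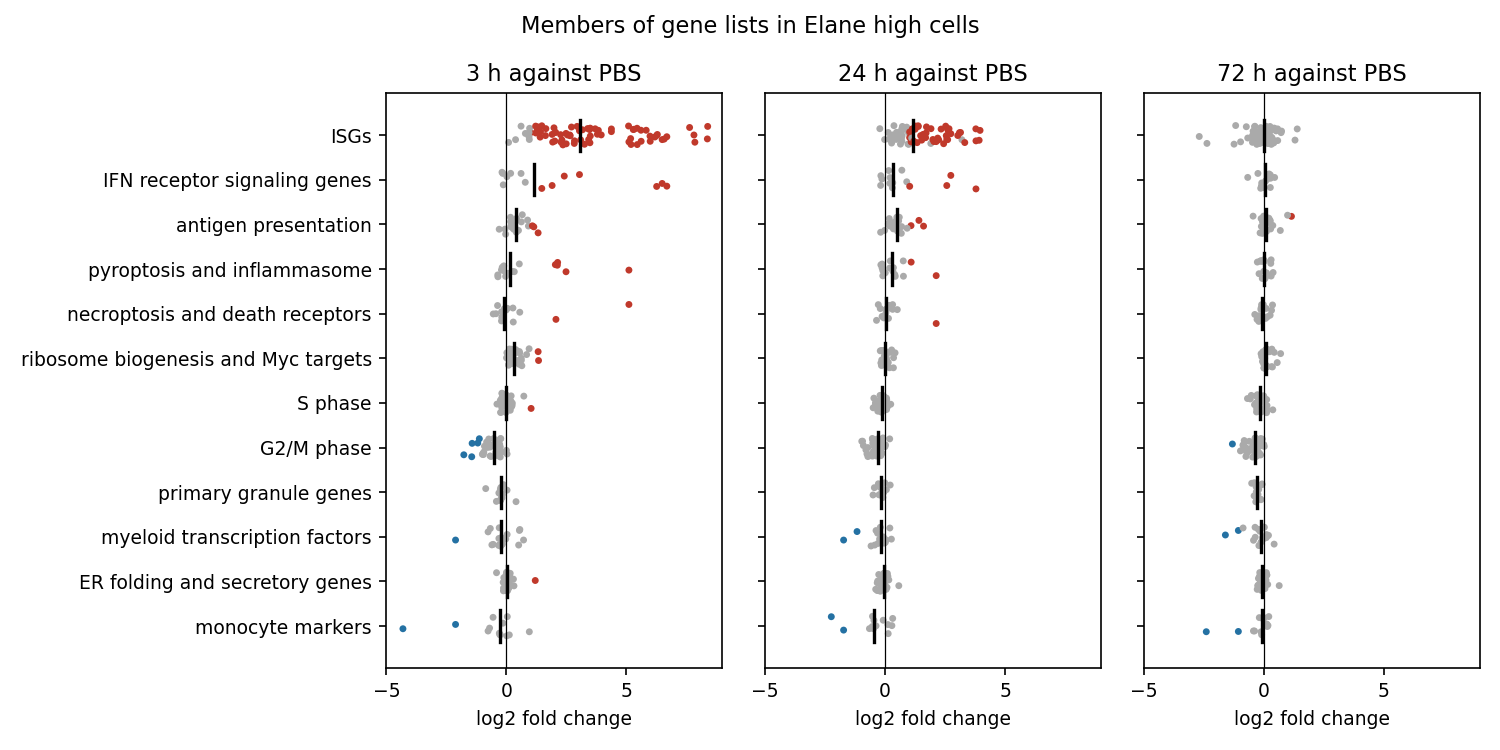
Log2 fold changes of the tested members of each gene list in the gated cells at 3 h, 24 h and 72 h against control; each point is a gene, red where called higher and blue where called lower, and the bar is the list's median. ISGs have medians of 3.09, 1.17 and -0.001, the G2/M genes -0.50, -0.29 and -0.35, and the primary granule genes -0.23, -0.16 and -0.29.

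Genes of antigen presentation moved upward in part. Of 21 tested, in a list that holds class I and class II genes, 13 were higher at an adjusted p below 0.05 at 3 h, 18 at 24 h and 8 at 72 h, and 0 lower at any time, of which 3, 3 and 1 were called (edgeR's quasi-likelihood test). Over all tested genes 13.4%, 7.21% and 7.49% were higher by the first rule, and 3.3%, 0.962% and 0.614% were called higher. The 3 h calls were Nlrc5, the transactivator of class I genes, the peptide transporter Tap1 and H2-T22, and the 24 h calls H2-Q4, H2-Q6 and H2-Q7. Tap1 stood at 55.2 ± 4.59 CPM in control, 121 ± 12.7 CPM at 3 h and 91.2 ± 4.21 CPM at 24 h (SD, n = 4), and Nlrc5 at 4.60 ± 0.83, 11.2 ± 1.94 and 4.17 ± 1.54 CPM. The difference between times was not tested. H2-K1, a classical class I chain, stood at 721, 720, 790 and 644 CPM in control. The 3 h mice had 720, 714, 714 and 727 CPM, the 24 h mice 1156, 1221, 1160 and 1138 CPM, and the 72 h mice 853, 791, 879 and 903 CPM. The 3 h mice lay within control, and every 24 h and 72 h mouse above it (log2 -0.03 ± 0.04, 0.68 ± 0.04 and 0.23 ± 0.04, with edgeR adjusted p of 0.734, 8.93e-14 and 0.000293). B2m, the light chain of class I, differed by 0.19 ± 0.04, 0.59 ± 0.04 and 0.11 ± 0.04.

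H2-Q6 stood at 12.9, 14.6, 16.3 and 12.3 CPM in control, 46.5, 48.0, 39.8 and 42.0 CPM at 24 h and 34.7, 24.6, 35.1 and 32.1 CPM at 72 h, where every mouse was still above control (log2 1.6 ± 0.11 and 1.15 ± 0.12, edgeR adjusted p = 4.18e-13 and 3.84e-08). With counts thinned to the mouse with the fewest UMIs, its 72 h call was lost. H2-Q7 was at 1.41 ± 0.09 and 0.98 ± 0.10. The Qa genes are near-identical copies, so how reads were shared among them is uncertain.

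Some sensors and effectors of inflammatory cell death rose, and the lists share Zbp1, Gbp2 and Gbp5 with the ISGs. At 3 h 5 of 16 tested pyroptosis genes rose (Zbp1, Gbp5, Gbp2, Casp4 and Il18) and 2 of 15 tested necroptosis genes (Zbp1 and Tnfsf10), against 3.3% of all tested genes called higher. At an adjusted p below 0.05 alone, 7 pyroptosis genes were higher and 0 lower at 3 h, with a median of 0.17, and 4 necroptosis genes were higher and 3 lower, with a median of -0.08. Over all tested genes, 13.4% were higher and 9.94% lower by this rule. At 24 h Zbp1 and Gbp2 were called in these lists, the call of Zbp1 being lost with counts thinned to the mouse with the fewest UMIs (1.09). Zbp1 (chr2:173206612-173218923, minus strand), a sensor of Z-form nucleic acid, stood at 3.79, 3.41, 3.08 and 9.87 CPM in control and 124, 130, 118 and 126 CPM at 3 h, far above every control mouse (log2 5.11 ± 0.14, edgeR adjusted p = 3.5e-23). Casp4, the caspase that senses cytosolic lipopolysaccharide, rose from between 8.59 and 12.3 CPM to between 33.2 and 45.2 CPM (2.13 ± 0.14), and Tnfsf10, the death ligand TRAIL, from between 2.47 and 5.35 to between 18.2 and 25 CPM (2.07 ± 0.19). Others were not called. Pycard, the inflammasome adaptor, differed by -0.10 ± 0.07 at 3 h (edgeR adjusted p = 0.305) and Ripk3, the necroptosis kinase, by -0.19 ± 0.10 (0.189). None of 13 tested genes of the BCL2 family and apoptosis regulators was called at any time. Over all tested genes, 3.3%, 0.962% and 0.614% were called higher and 0.85%, 0.297% and 0.399% lower. A count of 0 among 13 lies near these shares. At an adjusted p below 0.05 alone, 2, 1 and 1 were lower and 0 higher. By that rule 9.94%, 5.11% and 6.36% of all tested genes were lower.

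Many mitotic genes, though not all, were lower at each of the 3 times. Of 42 genes of the G2/M phase, 29 were lower and 0 higher at an adjusted p below 0.05 at 3 h, 20 and 0 at 24 h, and 24 and 0 at 72 h, with medians of -0.50, -0.29 and -0.35 (edgeR's quasi-likelihood test), against 9.94%, 5.11% and 6.36% of all tested genes lower. Called lower were 5 at 3 h (Ube2c, Plk1, Kif2c, Mki67 and Kif11), 0 at 24 h and 1 at 72 h (Ube2c), while scaling by library size alone called 10, 1 and 2 lower. Over all tested genes, 0.85%, 0.297% and 0.399% were called lower at the 3 times. Ube2c (chr2:164769898-164778822, plus strand), the ubiquitin enzyme that ends mitosis, stood at 118, 127, 115 and 69.1 CPM in control, 42.6, 29.9, 34.9 and 29.3 CPM at 3 h, 43.5, 64.9, 50.3 and 74.1 CPM at 24 h and 43.4, 42.3, 55.2 and 45.5 CPM at 72 h. All 3 h and 72 h mice were below control, and at 24 h mouse 4 was above the lowest control mouse, which had 14 gated cells. The log2 change was -1.77 ± 0.15 at 3 h (edgeR adjusted p = 7.3e-11), -0.97 ± 0.11 at 24 h (5.61e-08) and -1.32 ± 0.13 at 72 h (2.57e-09).

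Mki67, the proliferation antigen Ki-67, stood at 104, 93.4, 82.5 and 49.4 CPM in control and at 41.9, 23.1, 39.5 and 49.2 CPM at 3 h. The 3 h mice lay below the control mice, though mouse 4 of each group differed by less than 1 CPM (-1.19 ± 0.18, edgeR adjusted p = 5.03e-06).

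The values of G2/M genes at 3 h were also taken by Elane range, a split chosen after seeing the data. Among cells with 5 to under 80 Elane UMIs per 10000, 32 of 42 G2/M genes were lower at 3 h, with 14 called and a median of -0.79. Among cells with 80 or more, 2 of 41 were lower and 1 higher, none was called, and the median was -0.22. At 24 h the higher range had 22 of 41 lower with a median of -0.45. The highest Elane range held 95 cells at 3 h against 331 in control, and the difference between ranges was not tested. The number of all genes called lower at 3 h also differed between these ranges, as given under the processing. The contrast is therefore not read as particular to G2/M genes. Over the ranges from low to high Elane, Mki67 had 141, 103 and 79.9 CPM in control (plain CPM) and stood at 40.8, 34.6 and 36.0 CPM at 3 h.

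DNA replication genes did not follow at 3 h. Of 33 S phase genes, 1 was called higher (Hells, a chromatin remodeler), against 3.3% of all tested genes. At an adjusted p below 0.05, 4 were higher and 2 lower, against 13.4% and 9.94% of all tested genes. The median of the list was 0.003 and became -0.14, with 10 lower, under scaling by library size alone. At 24 h and 72 h 12 and 11 were lower, 1 higher each, and 0 were called (edgeR's quasi-likelihood test), against 5.11% and 6.36% of all tested genes lower by the adjusted p alone. Mcm6, a subunit of the replicative helicase, stood at 222 to 237 CPM in control and 201 to 257 CPM at 3 h, overlapping groups.

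Many ribosome biogenesis genes, though not all, were higher at 3 h. Of 28 tested, 18 were higher and 0 lower at an adjusted p below 0.05, with a median of 0.32, against 13.4% of all tested genes higher, and 2 were called, Ddx21 and Wdr43, against 3.3%. At 24 h 5 and at 72 h 8 were higher, 0 lower and 0 called, against 7.21% and 7.49% of all tested genes higher by the adjusted p alone. Scaling by library size alone gave 14 higher and 1 lower at 3 h. Ddx21, a helicase of ribosomal RNA synthesis, stood at 144, 125, 132 and 121 CPM in control and 352, 298, 349 and 344 CPM at 3 h, without overlap (log2 1.34 ± 0.06, edgeR adjusted p = 3.65e-18). Npm1, the most abundant member, stood at 2583 ± 101 and 2611 ± 159 CPM in control and 3 h mice (0.02 ± 0.03, edgeR adjusted p = 0.668). Of 18 glycolysis genes, 5 were higher and 6 lower at 3 h at an adjusted p below 0.05 alone, with a median of -0.13. Over all tested genes, 13.4% were higher and 9.94% lower by this rule. In the glycolysis list 2 were called higher, against 3.3% of all tested genes. These were Hk2 and Pgk1, Hk2 from 28.0 ± 12.1 to 113 ± 15.3 CPM and Pgk1 from 27.5 ± 1.13 to 98.2 ± 11.6 CPM, while Gapdh, the most abundant, differed by -0.23 ± 0.05. Among 31 genes of folding and secretion in the endoplasmic reticulum 1 was called at 3 h, Sec61g, against 3.3% of all tested genes called higher. The list median of 0.04 turned to -0.10 under scaling by library size alone. Of 21 purine synthesis genes only Nme2 was called, lower at 72 h, and none of 12 homing and adhesion genes was. Over all tested genes, 3.3%, 0.962% and 0.614% were called higher and 0.85%, 0.297% and 0.399% lower at the 3 times.

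A few immediate-early and handling genes fell. Of 17 tested, 3 were called lower at 3 h (Hspa1a, Hspa1b and Btg2), 3 at 24 h (Hspa1a, Hspa1b and Fosb) and 1 at 72 h (Hspa1b). At an adjusted p below 0.05 alone, 1 was higher and 4 lower at 3 h, 0 and 5 at 24 h, and 3 and 1 at 72 h, with medians of -0.32, -0.33 and 0.10 (edgeR's quasi-likelihood test). Over all tested genes 0.85%, 0.297% and 0.399% were called lower, and 9.94%, 5.11% and 6.36% were lower by the adjusted p alone. Hspa1b, a heat shock protein, stood at 7.71, 34.4, 60.8 and 42.0 CPM in control and 0.665, 1.93, 0.506 and 3.87 CPM at 3 h. The groups did not overlap, but the control mice spread widely, and with DESeq2 the 24 h calls of both heat shock genes and the 72 h call of Hspa1b were lost. The 72 h value of Hspa1b ran from -1.96 to -1.31 without control mouse 2 or 3 or 72 h mouse 1 or 2, none called. Btg2 lost its call without 3 h mouse 3 (-1.11), and Fosb without control mouse 3 (-0.58) or 24 h mouse 1 (-0.88) or 2 (-1.01). The pair of heat shock genes are near-identical copies. In all other kept cells Hspa1a also stood lower, at 28.6 CPM in control and 1.71 CPM at 3 h on the scale of the joint fit described below, and the part of handling in the results was not tested.

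Among the most abundant genes called was one with the same course in all other kept cells. Rpl35 (chr2:39001580-39005624, minus strand), a ribosomal protein, stood at 616, 616, 640 and 615 CPM in control. The 3 h mice had 3245, 3460, 3384 and 3398 CPM, the 24 h mice 1507, 1473, 1480 and 1476 CPM, and the 72 h mice 2350, 2324, 2310 and 2366 CPM. The mice of a group lay close together and the groups far apart (log2 2.44 ± 0.03, 1.25 ± 0.03 and 1.91 ± 0.03, with edgeR adjusted p down to 3.01e-32). On the scale of the joint fit, all other kept cells went from 641 to 3356, 1470 and 2292 CPM, and the response differed from that of the gated cells by 0.05 to 0.06 on the log2 scale. Rps29, Rps28, Rpl38, Atp5k, Ndufa3 and Sec61g rose in the gated cells at 3 h as well, and 11 of 77 ribosomal protein genes, 5 of 92 respiratory chain genes and 4 of 13 mitochondrial genes were called higher and 0 lower, against 3.3% of all tested genes called higher. At an adjusted p below 0.05 alone, 46 ribosomal protein genes were higher and 15 lower, 45 respiratory chain genes higher and 13 lower, and 7 mitochondrial genes higher and 1 lower. Over all tested genes, 13.4% were higher and 9.94% lower by this rule at 3 h. At 24 h and 72 h, 40 and 47 ribosomal protein genes were higher and 6 and 8 lower. For respiratory chain genes the counts were 35 and 28 higher and 5 and 19 lower. For mitochondrial genes they were 11 and 12 higher and 0 lower. Over all tested genes, 7.21% and 7.49% were higher and 5.11% and 6.36% lower at these times.

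At 72 h, Nme2 and Rnaset2a fell in the gated cells and stood lower in the other cells too. Nme2, a nucleoside diphosphate kinase, stood at 72.4, 66.3, 71.1 and 61.7 CPM in control and 22.7, 21.6, 23.2 and 25.2 CPM at 72 h, clear of control (-1.59 ± 0.09, edgeR adjusted p = 3.28e-15), and in all other kept cells it went from 47.2 to 15.4 CPM. Rnaset2a, a ribonuclease gene, stood at 201 ± 9.22 and 70.7 ± 4.27 CPM (SD, n = 4), and in all other kept cells at 124 and 43.1 CPM. Rnaset2a and Rnaset2b and the pseudogenes Gm10076, Gm10020 and Gm8186 have near-identical copies, so their counts are uncertain. Since each group is 1 library, the library and the time point cannot be told apart for these genes. Replication histones went in both directions. Of 40 tested, 8 were called higher and 0 lower at 3 h, against 3.3% of all tested genes called higher. At an adjusted p below 0.05 alone 14 were higher and 5 lower, against 13.4% and 9.94% of all tested genes. The count of lower histones was thus near the share over all genes. Hist1h1b, a linker histone, stood at 416 ± 142 CPM in control and 294 ± 92.0 CPM at 3 h (-0.61 ± 0.21, edgeR adjusted p = 0.0346). Hist1h2ap rose in the gated cells from 4.94 to 19.9 CPM in control to 144 to 274 CPM at 3 h (3.6 ± 0.20), and its response differed from that of the other kept cells by -0.79 ± 0.18 (edgeR adjusted p = 0.00468).

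Markers of other cell types were looked for in the gated cells. Of 8 T and NK cell markers none passed the filter, with a summed level of at most 0.74 CPM (plain CPM, group mean), and Cd3e, Cd8a, Ncr1 and Gzma were at 0. Of 10 lymphoid progenitor markers 2 passed and 0 were called, with summed levels of 33.7, 24.2, 36.9 and 31.7 CPM in control, 3 h, 24 h and 72 h, led by Satb1, and Rag1 was at 0. Of 12 HSC markers 6 passed, and the 1 called, at 3 h and 24 h, was Ly6a, itself an ISG. Their summed levels were 80.6, 102, 113 and 80.7 CPM, led by Ctla2a.

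Erythroid markers summed to 107 ± 15.9, 84.4 ± 9.82, 119 ± 53.7 and 155 ± 126 CPM (5 of 14 passed, 0 called), led by Car2 and Tfrc, and 72 h mouse 1 alone held 344 CPM with 135 CPM of Car1. Megakaryocyte markers summed to 38.6, 43.4, 60.2 and 40.8 CPM (4 of 10 passed), with Plek called higher at 3 h and Pf4 at 24 h, where mouse 2 alone held 57.6 CPM of Pf4. Among the gated cells, 4, 0, 3 and 2 carried 5 or more UMIs of Klf1 plus Car1 per 10000, and 2, 1, 3 and 2 that much of Pf4 plus Itga2b. Their part in the results was not tested. Dendritic cell markers summed to 1034 ± 106, 741 ± 22.2, 844 ± 14.5 and 819 ± 51.9 CPM (3 of 10 passed, 0 called), nearly all of it Cst3, a protease inhibitor that many myeloid cells express.

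Monocyte markers, of which 13 of 15 passed, summed to 1124 ± 165, 1050 ± 50.3, 896 ± 69.0 and 1008 ± 138 CPM, led by Ms4a6c, itself an ISG. Called lower were Klf4 and Lgals3 at each time. Lgals3 (galectin 3) stood at 44.9, 8.33, 15 and 9.87 CPM in control and at 0, 0.963, 1.52 and 1.66 CPM at 3 h, without overlap (-4.31 ± 0.85, edgeR adjusted p = 0.000249), at 1.5 to 9.78 CPM at 24 h and 2.39 to 7.81 CPM at 72 h. F13a1, a marker of monocyte progenitors, differed by -0.55 ± 0.12 at 3 h (edgeR adjusted p = 0.00101), by -0.53 ± 0.10 at 24 h (0.00046), both short of the fold threshold, and by 0.02 ± 0.11 at 72 h. At an adjusted p below 0.05 alone, 5, 8 and 3 of the 13 were lower and 1, 0 and 0 higher at the 3 times, with medians of -0.27, -0.47 and -0.10 (edgeR's quasi-likelihood test), against 9.94%, 5.11% and 6.36% of all tested genes lower.

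Basophil, mast cell and eosinophil markers varied widely between mice of 1 group. Their sum was 339, 994, 769 and 115 CPM in the control mice, and the 3 h, 24 h and 72 h mice had 169 to 318, 182 to 610 and 168 to 687 CPM, led by Prg2 and Cpa3, with 8 of 11 passing the filter. Prg2, the eosinophil granule major basic protein, stood at 151, 473, 319 and 0 CPM in control, 39.2, 0, 1.52 and 27.1 CPM at 3 h, 219, 96.5, 3.80 and 26.9 CPM at 24 h and 80.2, 1.97, 10.7 and 195 CPM at 72 h. Every treated group overlapped control. Prg2 was called lower at each time (-4.02 ± 0.91, -1.78 ± 0.56 and -2.02 ± 0.62), but at no time with DESeq2, and among cells with 80 or more Elane UMIs per 10000 its difference had the opposite sign at 3 h and 72 h (0.74 and 0.48). Leaving out single mice also ended the call, at 24 h for control mouse 2 or 3 and 24 h mouse 2, 3 or 4 (-1.88 to -1.32), and at 72 h for control mouse 2 or 3 and 72 h mouse 1, 2 or 3 (-2.11 to -1.56). Prg3 and Epx, other eosinophil granule genes, were called lower at 24 h. The call of Prg3 was lost with DESeq2, with the likelihood ratio test (-1.30) and without control mouse 2 (-1.20). It was also lost with counts thinned to the mouse with the fewest UMIs (-0.84) and among cells with 80 or more Elane UMIs per 10000 (-0.32).

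The response of the gated cells was then set against that of the other cells of the same mice, by testing the difference between the log2 changes with the mouse as a block. The nearest cells were the 1561 Mpo-positive, Elane-low cells (346, 250, 570 and 395), for which control mouse 4 had too few cells, leaving 3 control mice. Few genes were called with a different response: 8 of 9892 at 3 h (0.0809%), 10 at 24 h (0.101%) and 1 at 72 h (0.0101%). At an adjusted p below 0.05 alone, 29, 66 and 31 differed (edgeR's quasi-likelihood test). A gene not called here is not shown to respond alike in both kinds of cell. Leaving out 1 mouse at a time gave from 5 to 10, from 2 to 16 and from 0 to 4 genes. The levels of most ISGs stood lower in the gated cells. On the scale of this joint fit, 63 of 77 ISGs had a lower mean in the gated cells in control, and 73, 65 and 50 did in the 3 h, 24 h and 72 h mice, and the median ISG stood at 7.33 against 11 CPM in control and 78.3 against 118 CPM at 3 h. The summed ISG level at 3 h was 12280 CPM in the gated cells and 17900 CPM in the Mpo-positive, Elane-low cells. These levels are a description, without a test.

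**Figure D5:**
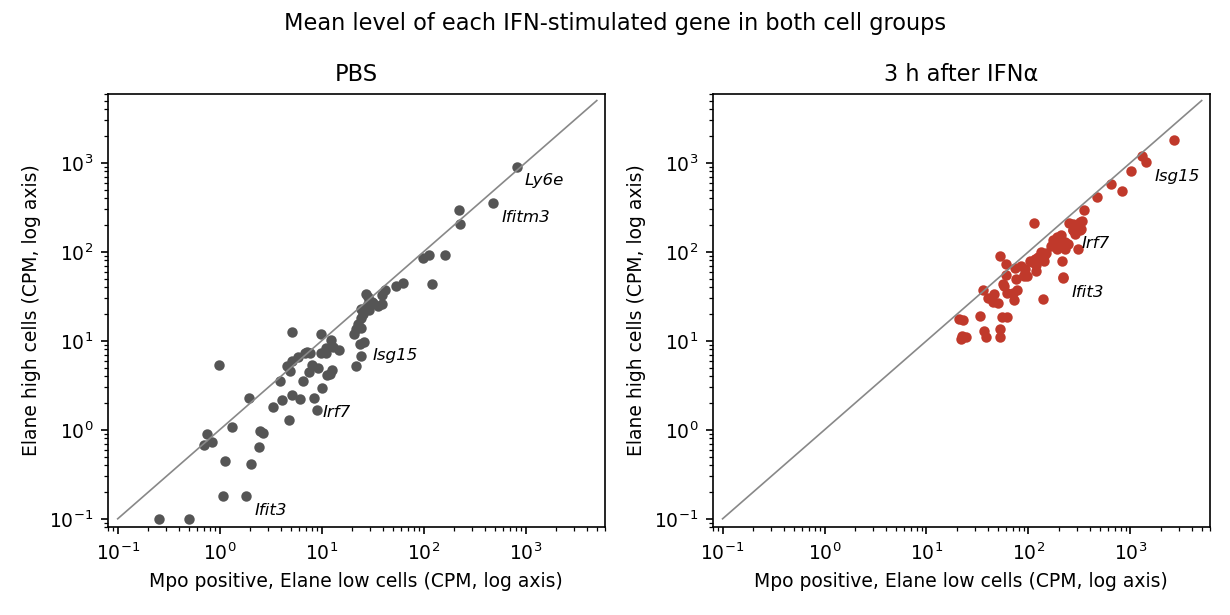
Mean level of each ISG in the gated cells (vertical axis) against the Mpo-positive, Elane-low cells (horizontal axis), joint-fit CPM on log axes, in control (left) and at 3 h (right); each point is a gene, the line marks equal levels, and zeros are drawn at the lower edge. In control 63 of 77 ISGs lie below the line and at 3 h 73 do.

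Irf7 and Rtp4, a chaperone of receptors, rose by more in the gated cells at 3 h, from lower levels. Irf7 went from 2.27 to 178 CPM in the gated cells and from 8.43 to 277 CPM in the Mpo-positive, Elane-low cells, a difference of 1.21 ± 0.28 on the log2 scale (edgeR adjusted p = 0.0295), and at 24 h of 1.20 ± 0.28 (0.0253). Rtp4 went from 5.21 to 179 CPM against 21.8 to 324 CPM (1.20 ± 0.21, edgeR adjusted p = 0.00116). Isg15 differed by 0.92 ± 0.14 at 3 h (edgeR adjusted p = 0.000241) and was called at 24 h (1.07 ± 0.15, adjusted p = 3.47e-05), as was Ifi44 (1.35 ± 0.32). In each of these the control level of the gated cells was the lower one.

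Smaller rises were called for Ms4a6b and Ms4a4c, membrane proteins of the same gene cluster as Ms4a3. Ms4a6b had the same control level in both kinds of cell, 45.6 and 44.7 CPM, and went to 132 CPM in the gated cells and to 267 CPM in the others at 3 h (-1.03 ± 0.14, edgeR adjusted p = 3.77e-05). Ms4a4c went from 11.9 to 36.8 CPM against 9.79 to 77.1 CPM (-1.29 ± 0.27, edgeR adjusted p = 0.00996). Cd74, the invariant chain of MHC class II, stood at 2.45 and 0 CPM in the gated cells in control and 3 h and at 1.12 and 22.3 CPM in the Mpo-positive, Elane-low cells. At 24 h Ccl5, a chemokine, stood at 1.48 CPM in the gated cells and 38.2 CPM in the others, from 2.76 and 4.36 CPM in control (-3.51 ± 0.69, edgeR adjusted p = 0.00552). Flt3 and Dntt, genes of lymphoid-primed progenitors, differed in the gated cells' favor at 24 h, Flt3 with 6.80 to 10.2 CPM against 57.1 to 41.7 CPM (1.07 ± 0.20) and Dntt with 0.679 to 3.23 CPM against 65.0 to 40.7 CPM (2.68 ± 0.60). The 1 gene called at 72 h was Ccr2, a chemokine receptor of monocytes, with 43.2 to 49.7 CPM against 33.1 to 18.9 CPM.

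Granule genes differed by less than the fold threshold, and Mpo, which chose the other cells, is left out here. The Elane limit set both kinds of cell, and Prtn3, Ctsg and Cebpe stood higher at higher Elane within the gate. In control, Prtn3 stood at 4087, 6581 and 10254 CPM from the lowest to the highest Elane range (plain CPM, n = 3 mice). The part of the limits in the differences of these 3 genes was not tested, so no p-value is given for them. Prtn3 went from 8039 to 6450 CPM in the gated cells at 72 h and from 1736 to 1723 CPM in the Mpo-positive, Elane-low cells (-0.31 ± 0.05). Ctsg differed by -0.22 ± 0.05 at 24 h and -0.25 ± 0.05 at 72 h, and by 0.06 ± 0.05 at 3 h. Cebpe differed by -1.37 ± 0.32 at 24 h, going from 147 to 126 CPM against 5.03 to 11.8 CPM. Cebpb, with 198 to 296 CPM against 87.2 to 211 CPM, differed by -0.71 ± 0.11 at 3 h (0.000144). For Ube2c, Mki67, H2-K1 and B2m the difference did not pass the test at any time.

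Against all other kept cells, the response differed for 116 of 11672 genes after 3 h (0.994%), for 96 after 24 h (0.822%) and for 38 after 72 h (0.326%). The difference favored the gated cells in 73, 88 and 36 of them and the other cells in 43, 8 and 2. Genes of the second kind were not split further. Among genes of the first kind, the mean of the other cells was lower after treatment in 65, 79 and 36. It was lower by more than 1 on the log2 scale in 50, 60 and 31. The median log2 change of the first kind was -1.36, -1.17 and -1.51 in the other cells and -0.03, 0.02 and -0.29 in the gated cells. Mpo was among the first kind, going from 1365 to 544 CPM in the other cells at 3 h and from 6979 to 5952 CPM in the gated cells (log2 difference 1.12 ± 0.11, edgeR adjusted p = 1.63e-09). The other cells include the later Elane-positive cells, which numbered 105 in control and 12 at 3 h, and the mix of cells and a change within them cannot be told apart in these sums.

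Klf4 went the other way at 3 h. It stood at 21.6 and 4.20 CPM in the gated cells and 5.88 and 5.02 CPM in all other kept cells (-2.05 ± 0.39, edgeR adjusted p = 0.000462), while against the Mpo-positive, Elane-low cells, where it went from 7.70 to 2.79 CPM, the difference did not pass (-0.49 ± 0.68, adjusted p = 0.942). H2-K1 went from 913 to 1140 CPM in the other kept cells at 3 h against 760 to 764 CPM in the gated cells, and B2m from 1336 to 1882 CPM against 1163 to 1348 CPM. These responses differed by -0.32 ± 0.04 and -0.29 ± 0.04 (edgeR adjusted p = 8.76e-07 and 5.52e-06), short of the fold threshold. Of 81 ISGs tested against all other kept cells, 4 were called with a larger and 9 with a smaller response in the gated cells at 3 h, against 0.625% and 0.368% of all tested genes. At an adjusted p below 0.05 alone, 6 were larger and 25 smaller (edgeR's quasi-likelihood test), against 4.26% and 2% of all genes, and the median difference was -0.32 on the log2 scale. At 24 h, 8 were called larger and 1 smaller, against 0.754% and 0.0685%, with a median of 0.19, and at 72 h 0 were called. Smaller at 3 h were Gbp3, a guanylate-binding protein, with 32.8 to 67.7 CPM against 12.2 to 96.3 CPM (-1.96), and Shisa5 (-1.04) and Ms4a6c (-1.03), which were chosen after their values were seen. Ifitm3 was smaller short of the threshold (-0.44 ± 0.06, edgeR adjusted p = 2.62e-06), and Oas3 was called larger (1.73 ± 0.40, adjusted p = 0.00433).

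Within the gate, ISGs were also tested by Elane level, in the split chosen after seeing the data. At 3 h, 67 of 76 tested ISGs were called higher among cells with 5 to under 80 Elane UMIs per 10000 (median 3.03) and 66 of 75 among cells with 80 or more (median 3.14), and 0 were called lower in either. In the whole gate 3.3% of all tested genes were called higher at 3 h, and the share within each range is not given here. Over the 3 narrower ranges, levels were taken for Isg15 and Ifit3 alone. Isg15 stood at 1162 ± 163, 923 ± 112 and 856 ± 118 CPM from the lowest to the highest range (plain CPM, SD, n = 4 mice), ranges whose spreads overlap between neighbors. Ifit3 stood at 89.5 ± 29.8, 52.5 ± 40 and 22.2 ± 1.49 CPM. In control both were low in all ranges, with 13.4, 10.5 and 8.67 CPM of Isg15 and at most 0.293 CPM of Ifit3.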

How the data were processed

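The authors made UMI counts per gene and cell with Cell Ranger 3.1.0 (mm10) and assigned cells to hashtags with Seurat; the deposited counts were not normalized. The files list 27998 genes. Cells called as multiplets or without a hashtag were left out, as were cells with over 5% mitochondrial UMIs or under 700 genes. No other doublet caller was run. Counts were summed per mouse and tested with edgeR 4.0.16 (TMM, quasi-likelihood, its filter on low counts) in R 4.3.3, all 4 groups in 1 fit. Differences of response were tested in a joint fit with the mouse as a block. DESeq2 1.42.0 was an alternative. Shares of cells were taken in mice with 100 or more kept cells, or 10 or more Elane-positive cells; the permutation tests planned for them are not used, since the values of the gate set the shares. Scripts were tested on simulated data. Members and gene lists were chosen with earlier results of these data known. Named genes were the 5 markers, up to 4 passing genes per list and direction with the most abundant members, and the 10 largest rises and falls per time point; others were added after their values were seen. Coordinates are GRCm38. Promoter sequences are RefSeq's; of 25174 promoter starts compared, 76.8% matched a transcript start of the same symbol in the annotation. A few genes the rule would name are not reported here.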

Additional observations from a re-analysis of the deposited data

Results flagged for a closer look

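Single mice stood apart from the other 3 of their group, by a gap test of the highest or lowest value, in 13 of 307 groups of 4; chance alone gives about 1 in 20. Low values were Prtn3 at 24 h in mouse 2 (5892 CPM), Rsad2 (0.491 CPM), H2-Q7 (71.2 CPM) in mouse 2 at 72 h, and Ddx21 in mouse 2 at 3 h (297.6 CPM). The values 9.97 CPM of Il18 and 59.2 CPM of Casp1 in mouse 1 at 3 h, 3.44 CPM of Il18 in mouse 2 at 72 h, 84.1 CPM of Ms4a6b in mouse 2 at 24 h and 29.3 CPM of Ccr2 in mouse 4 at 3 h also stood apart. In control mouse 4, which had 14 gated cells, Zbp1 (9.87 CPM) and Flt3 (14.8 CPM) were high, and so were Hspa1b in mouse 4 at 24 h (14.8 CPM) and Rpl35 in control mouse 3 (640.1 CPM).

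The change from control differed between the gated cells and all other kept cells, by the test of the difference itself, in the following named genes. Values are the log2 difference, positive where the gated cells changed upward by more or downward by less. At 3 h these were Mpo (1.12), Prtn3 (1.05), Ctsg (1.29), Ms4a3 (1.73), Cebpe (2.04), Usp18 (1.28), Irf7 (1.00), Oas3 (1.73), Rtp4 (1.33), Klf4 (-2.05), Ms4a6b (-1.44) and Ms4a4c (-2.09). At 24 h they were Mpo (1.02), Ms4a3 (1.503), Cebpe (1.80), Isg15 (1.00), Usp18 (1.06), Oas3 (2.01), Rtp4 (1.22), Dntt (1.99), Ifi44 (1.14), Ccr2 (1.04), Id2 (-1.03) and Ccl5 (-2.05), and at 72 h Ms4a3 (1.26), Cebpe (1.69), Fcnb (2.24) and Ccr2 (1.095). The other kept cells include the Elane-positive cells that the S100a8 and S100a9 limit left out. These numbered 105 in control and 12, 31 and 25 in the 3 h, 24 h and 72 h libraries. In control they held 319 CPM of Cebpe and 2567 CPM of Ms4a3. For granule and neutrophil genes, that change in the mix and a response within cells cannot be told apart.

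Against the Mpo-positive, Elane-low cells the differences at 3 h were Irf7 (1.21), Rtp4 (1.20), Ms4a6b (-1.03), Ms4a4c (-1.29) and Cd74 (-9.72, a fitted value with the gated cells at 0 CPM, which is no bound). At 24 h they were Cebpe (-1.37), Isg15 (1.07), Irf7 (1.20), Cd74 (-3.20), Ccl5 (-3.51), Flt3 (1.07), Dntt (2.68) and Ifi44 (1.35), and at 72 h Ccr2 (1.03).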

How the results depend on the processing

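Each group was 1 library, so group and library cannot be told apart, and control mouse 4 gave 14 gated cells. The hashtag number did not pair mice (median correlation of deviations 0.0421 over 24 same-numbered pairs and -0.004 over 72 others); with it as a replicate block the calls were 323 higher and 93 lower at 3 h, 96 and 31 at 24 h, and 60 and 45 at 72 h, and of the named calls Fcnb at 3 h was lost. The causes of the changes below were not tested. Shares kept their direction in all 48 alternatives and in the 96 fits without 1 mouse, and of values of named genes 1165 kept call and direction, 37 lost the call and 2 reversed (Prg2 among cells with 80 or more Elane UMIs per 10000, 0.74 at 3 h and 0.48 at 72 h); without 1 mouse, 1300 kept both and 28 lost the call.

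Counts of called genes that moved by more than 1.5 times were these. Library size alone gave 171 lower at 3 h. Without the filter on low counts there were 139 lower at 3 h, 56 lower at 24 h, and 92 higher and 64 lower at 72 h. DESeq2 gave 16 lower at 24 h and 20 lower at 72 h. Thinning to the mouse with the fewest UMIs, an alternative with less depth, gave 177 higher and 38 lower at 3 h, 48 and 7 at 24 h, and 34 and 12 at 72 h. Chosen after seeing the data, cells with 80 or more Elane UMIs gave 37 lower at 3 h and 39 higher at 72 h, and cells with 5 to under 80 gave 139 lower at 3 h; with sums thinned to the smallest, the response differed from all other kept cells in 29, 9 and 7 genes.

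The counts against Mpo-positive, Elane-low cells, at 3 h, 24 h and 72 h in turn, were 21, 22 and 10 without the filter, 5, 1 and 2 with Elane of at least 10, and 4, 4 and 0 with at least 2. The likelihood ratio test gave 15 at 3 h and 3 at 72 h, either other S100a8 and S100a9 limit 2 at 72 h, and leaving out likely doublets 8 at 72 h.

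Without 1 mouse at a time, genes called higher ranged from 327 to 351, 84 to 104 and 57 to 72, those called lower from 82 to 100, 25 to 42 and 36 to 44, those differing from all other kept cells from 89 to 118, 69 to 105 and 27 to 42, and those differing from Mpo-positive, Elane-low cells from 5 to 10, 2 to 16 and 0 to 4. The last moved by over 1.5 times without control mouse 1 (5, 5 and 3), control mouse 2 (4 at 72 h), control mouse 3 (2 at 24 h and 0 at 72 h), 3 h mouse 1, 3 or 4 (2 at 72 h), 24 h mouse 2 (6 at 24 h and 2 at 72 h), mouse 3 (3 at 72 h) and mouse 4 (16 at 24 h and 4 at 72 h), and 72 h mouse 2 (4) and mouse 4 (0 at 72 h).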
